A study of Arabidopsis thaliana with 14 samples.

Results

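The 66 probe sets described here had a short-lived maximum in untreated Arabidopsis seedlings: their signal was high 3 h into the experiment and low both before it and at 12 h. They were chosen by their measured signals on the 6 untreated arrays. The mean of the 2 untreated 3 h arrays had to be at least 1.8 times the untreated 0 h mean and at least 1.8 times the untreated 12 h mean, and at least 168. Both 3 h arrays also had to lie above the other 4 untreated arrays. Of 22746 probe sets that are not array controls, 71 met these conditions, and 5 of them (GI, AT3G13610, AT1G30760, AT4G16260 and AT5G48570) were left out by name. The untreated pattern of the 66 is therefore a description, and the question put to the data was what the same genes did in the treated seedlings, whose arrays had no part in the choice.

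The samples were whole seedlings of wild-type Arabidopsis thaliana, accession Col-0, measured on Affymetrix ATH1 arrays. For 5 days they grew on agar with 0.5x MS, a standard mineral medium, at 22 °C with a daily cycle of 16 h light and 8 h dark. They then spent 1 day in 0.5x MS solution and were treated on day 6 after germination. There were 7 groups of 2 arrays: untreated seedlings at 0 h, 3 h and 12 h, seedlings given 50 µM of compound 7606596 for 3 h or 12 h, and seedlings given 50 µM of compound 5929745 for 3 h or 12 h. Both compounds are known here only by these code names. About 2000 seedlings were collected for the 0 h samples, so these were pools of plants, and the labels describe the arrays as 2 independent sets without saying whether these came from separate cultures. Whether untreated plants were given a solvent, and at what clock time any sample was taken, is not stated in the labels.

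Values are MAS5 signals, a linear brightness that the authors scaled on each array. Median signals ran from 151.9 to 168.6, and the 2 arrays of a group correlated with r between 0.983 and 0.989 over log2 signals. The 4 untreated 3 h and 12 h arrays stood apart in 2 technical measures. The mean log2 signal of the poly-A control probe sets was 6.52 to 6.71 on them and 4.8 to 5.34 on the other 10 arrays. The 25S rRNA control was at 183.6 to 277 on them and at 289.6 to 850.3 on the other 10. These differences run between untreated and treated seedlings at 3 h and 12 h, and between untreated 0 h and later untreated seedlings, so in those comparisons they cannot be told apart from the groups. The poly-A difference does not run between 3 h and 12 h within the untreated or within the treated arrays. The mean log2 signal of the hybridization controls did run with time in the untreated seedlings. It was 11.48 and 11.39 at 0 h, 11.18 and 11.14 at 3 h, and 10.77 and 10.82 at 12 h. Its part in the untreated pattern was not tested. The tissue could be checked only in part, because the annotation named 0 of 6 green shoot markers, 0 of 4 seed storage markers and 2 of 7 root markers. Both named root markers, the root hair expansins EXPA7 and EXPA18, gave a signal, and their summed signal was 89.24 to 279.7 over the 10 treated and untreated 0 h arrays. It was 121.2 and 159.2 on the untreated 3 h arrays and 98.63 and 101 on the untreated 12 h arrays.

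Plants change the level of many transcripts within hours. Light, the circadian clock, handling and growth all act on such time courses, and secreted enzymes of the cell wall, receptor kinases and stress proteins are among the gene families that respond quickly. Class III peroxidases use hydrogen peroxide to oxidise phenolic compounds in the wall, expansin-like proteins and xyloglucan endotransglucosylases act on wall polymers during growth, and malectin-like receptor kinases are membrane proteins with an extracellular domain and an intracellular kinase. C1 domain proteins carry cysteine- and histidine-rich repeats, and the function of most is not known. Aspartic proteases of the plant secreted type, jacalin-related lectins, which bind sugars, and lipid-transfer proteins are often expressed in response to stress.

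The annotation gave a single gene for 36 of the 66 probe sets, several genes for 2 and none for 28. All 66 passed the filter on low signals, a mean over all arrays of at least 42.3, as did 15922 probe sets in all. In untreated seedlings the 3 h mean was 1.8 to 4.93 times the higher of the 0 h and 12 h means, with a median of 2.16. It was a median of 2.31 times the 0 h mean and 2.94 times the 12 h mean, and in 52 of the 66 the 12 h mean lay below the 0 h mean. Just inside the threshold of 1.8 were AT4G35840 at 1.801, AT1G30700 at 1.838 and Prx37 at 1.88, and just outside it were AT2G39420 at 1.756, AT3G13980 at 1.751 and AT3G07540 at 1.744.

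**Figure D1:**
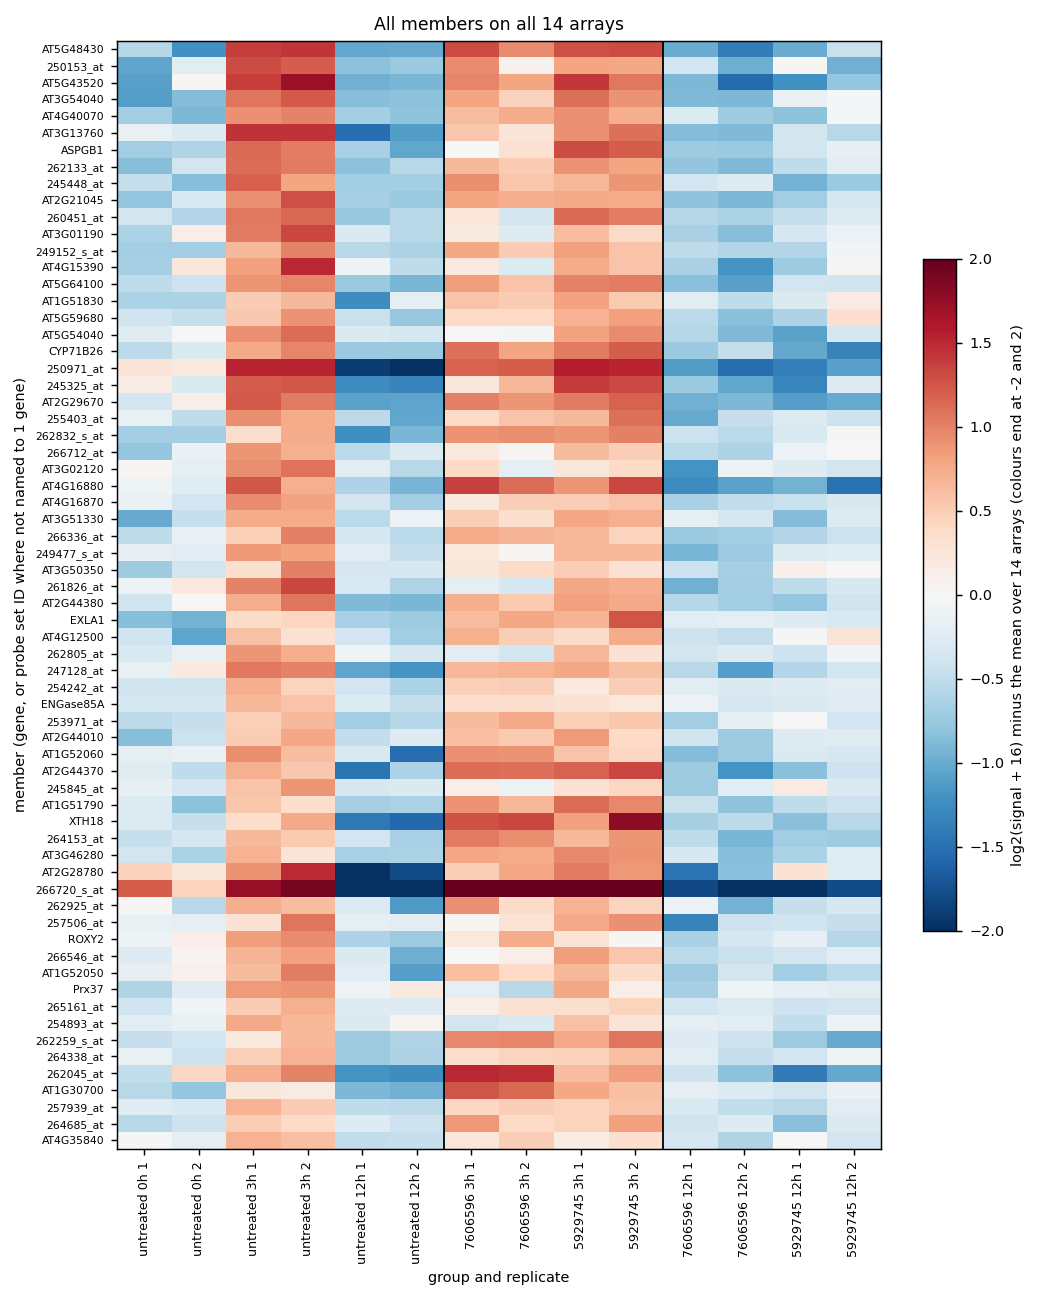
Each row is a member, ordered by the ratio of its untreated 3 h mean to the higher of the 0 h and 12 h means, and each column is an array. Colour gives log2(signal + 16) minus the member's mean over 14 arrays, and the lines separate untreated, treated 3 h and treated 12 h arrays. Treated 3 h columns are mostly red and treated 12 h columns mostly blue, as are the untreated 3 h and 12 h columns from which the members were chosen.

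In treated seedlings nearly all these genes were lower at 12 h than at 3 h. With both compounds averaged, 64 of 66 members fell from 3 h to 12 h and 0 rose (limma on log2(signal + 16), adjusted p under 0.05). Of the 15922 probe sets tested, 39.2% were called in either direction and 2894 fell. The median change of the members was -1.15 on the log2 scale, with a range from -4.18 to -0.3, and the median of all tested probe sets was 0.01. On 57 of 66 members all 4 treated 3 h arrays lay above all 4 treated 12 h arrays, which held for 15.5% of the probe sets tested. The members that did not pass the test were Prx37, at -0.33 ± 0.18 (SE, adjusted p = 0.17), and the probe set 254893_at without a gene, at -0.3 ± 0.14 (adjusted p = 0.0943). In whole seedlings, fewer cells of a type and less RNA per cell cannot be told apart.

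Most members also fell with each compound taken alone. With 7606596, 60 members fell and 0 rose, against 12.4% of tested probe sets that fell, and the median change was -1.12 with a range from -4.28 to 0.12. With 5929745, 58 members fell and 0 rose, against 11.5% of tested probe sets that fell, and the median change was -1.14 with a range from -4.08 to -0.35. The calls were shared in 55 members, while 5 passed only with 7606596, 3 only with 5929745 and 3 with neither. The share of tested probe sets that fell with both was not counted. It cannot exceed the 11.5% that fell with 5929745. Leaving out 1 treated array at a time gave 48 to 61 calls with 7606596 and 46 to 58 with 5929745. By limma, the difference between the time changes under the compounds was called in 0 of 66 members. Of tested probe sets, 0.0502% were called in either direction. With so low a share, 0 of 66 does not show that the changes were equal. The differences ran from -0.89 to 0.92 on the log2 scale, with a median standard error of 0.27. An unadjusted p under 0.05 was found in 13 members. The share over all tested probe sets was not counted, so nothing is read from this count. Across the 66 members the changes under the compounds had a Pearson correlation of 0.8 and a Spearman correlation of 0.65. Over all tested probe sets the values were 0.82 and 0.75. The points of each comparison share arrays and scaling, and genes are not independent replicates.

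**Figure D2:**
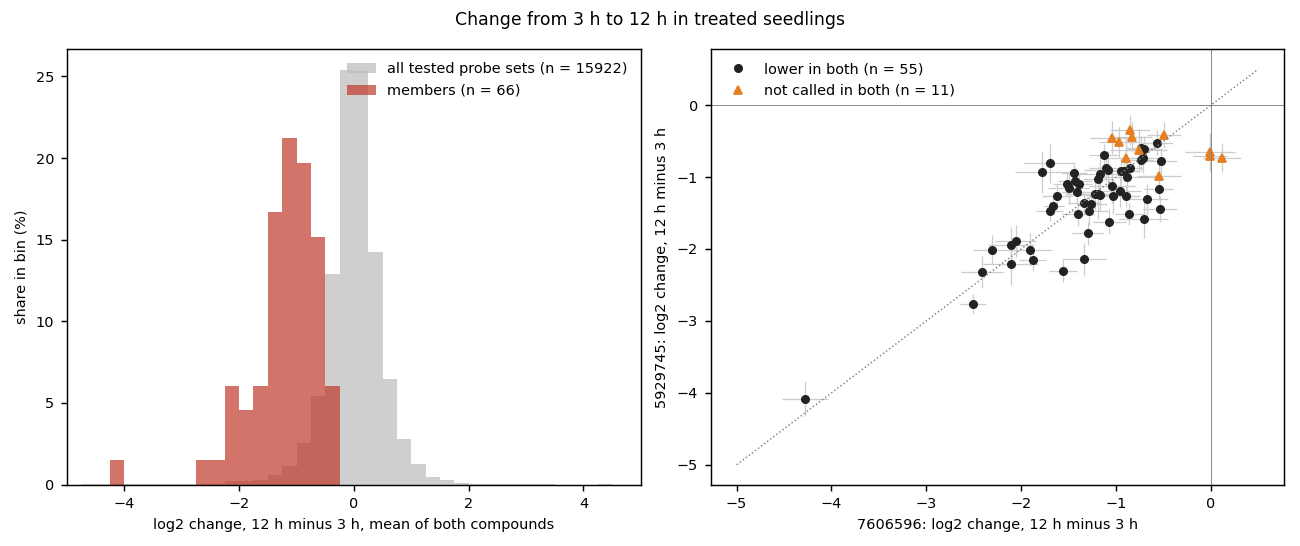
The left panel shows the share of members (red, n = 66) and of all tested probe sets (grey, n = 15922) in bins of the log2 change from 3 h to 12 h with both compounds averaged. The right panel sets each member's change with 5929745 (vertical) against that with 7606596 (horizontal), with bars of 1 SE, a dotted line of equal change, dots for the 55 members that fell with both and triangles for the other 11. All members lie below 0 on the vertical axis.

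The 5 C1 domain proteins among the members were AT5G43520, AT3G13760, AT5G54040, AT2G44380 and AT2G44370, and all 5 fell from 3 h to 12 h with both compounds averaged. AT5G43520 had untreated signals of 62.5 and 155.9 at 0 h, 417.4 and 532.5 at 3 h and 69.86 and 72.77 at 12 h. In treated seedlings its signals were 310.4 and 272.3 with 7606596 and 425.4 and 329.3 with 5929745 at 3 h. At 12 h they were 73.12 and 41.03 with 7606596 and 56.26 and 81.87 with 5929745. All 4 treated 3 h arrays thus lay above all 4 treated 12 h arrays, and the change was -2.16 ± 0.21 (adjusted p = 1.15e-07). AT2G44370 was higher in treated than in untreated seedlings at 3 h: its signals were 570.9 and 502.3 without treatment, 761.3 and 749 with 7606596 and 796.8 and 891.1 with 5929745. By 12 h it was at 114.2 and 216.9 without treatment, 203.4 and 139.8 with 7606596 and 183.8 and 254 with 5929745. The treated groups overlapped the untreated group at 12 h but not at 3 h, and its change in treated seedlings was -1.97 ± 0.16 (adjusted p = 1.2e-08). Its neighbour in the genome, AT2G44380, with no gene between them, changed by -1.32 ± 0.11 (adjusted p = 2.63e-08). Its untreated 3 h mean was 1479 ± 247 (SD, n = 2), against 1222 ± 121 with 7606596 and 1363 ± 42.3 with 5929745. AT5G54040 was the C1 gene that differed most between compounds at 3 h, with 75.08 and 72.72 under 7606596 and 142.3 and 159.3 under 5929745, a difference of -0.89 ± 0.26 that did not pass the test (adjusted p = 0.147). Its fall under 7606596 alone, -0.71 ± 0.26, was at the threshold (adjusted p = 0.0489) and lost its call in 11 of 15 alternative settings.

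AT5G48430 and AT3G51330, both aspartic proteases, fell as well. AT5G48430 had the highest ratio of the untreated peak among the 66, at 4.93. Its untreated signals were 571.2 and 359.9 at 0 h, 2251 and 2335 at 3 h and 415.7 and 419.9 at 12 h. At 3 h it was at 2142 and 1658 with 7606596 and 2104 and 2133 with 5929745, and at 12 h at 423.8 and 319.8 with 7606596 and 420.8 and 622.8 with 5929745. The treated means at 3 h were 0.829 and 0.924 times the untreated mean, and the fall in treated seedlings was -2.16 ± 0.14 (adjusted p = 6.1e-10). AT3G51330 stood at 222.8 and 194.8 with 7606596 and 274.5 and 261.1 with 5929745 at 3 h, and at 133.4 and 116.6 with 7606596 and 76.67 and 124.6 with 5929745 at 12 h. It fell by 0.99 on the log2 scale, with a standard error of 0.16 (adjusted p = 5.3e-05).

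Of 3 class III peroxidases, AT5G64100 and AT3G01190 fell from 3 h to 12 h and Prx37 did not pass the test. For AT5G64100, untreated signals were 3984 and 4283 at 0 h, 10480 and 11160 at 3 h and 3389 and 3016 at 12 h. Treated signals were 10120 and 8488 with 7606596 and 11330 and 11580 with 5929745 at 3 h, and 3192 and 2676 with 7606596 and 4347 and 4313 with 5929745 at 12 h. The 3 h and 12 h arrays were far apart within each treatment, with a change of -1.53 ± 0.08 (adjusted p = 3.86e-11). At 3 h AT3G01190 was at 823.1 and 1014 without treatment, 447.6 and 325.4 with 7606596 and 610.1 and 512.8 with 5929745. Both treated groups lay below the untreated group, a position that the choice of members by high untreated 3 h signals favours. At 12 h AT3G01190 was at 318 and 260.1 without treatment, 242.8 and 210.8 with 7606596 and 306.2 and 359.3 with 5929745. Its 3 h and 12 h arrays overlapped when the compounds were pooled, and its change was -0.72 ± 0.15 (adjusted p = 0.000716). Prx37 reached 182 and 187.6 in untreated seedlings at 3 h but 80.79 and 59.01 with 7606596 and 172.2 and 104.3 with 5929745. With 7606596 its 12 h signals of 53.31 and 87.25 enclosed its 3 h signals, so no fall was detectable there (-0.01 ± 0.26, adjusted p = 0.983). With 5929745 it was at 82.52 and 77.64 at 12 h, a change of -0.65 ± 0.26 that did not pass the test (adjusted p = 0.0771).

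**Figure D3:**
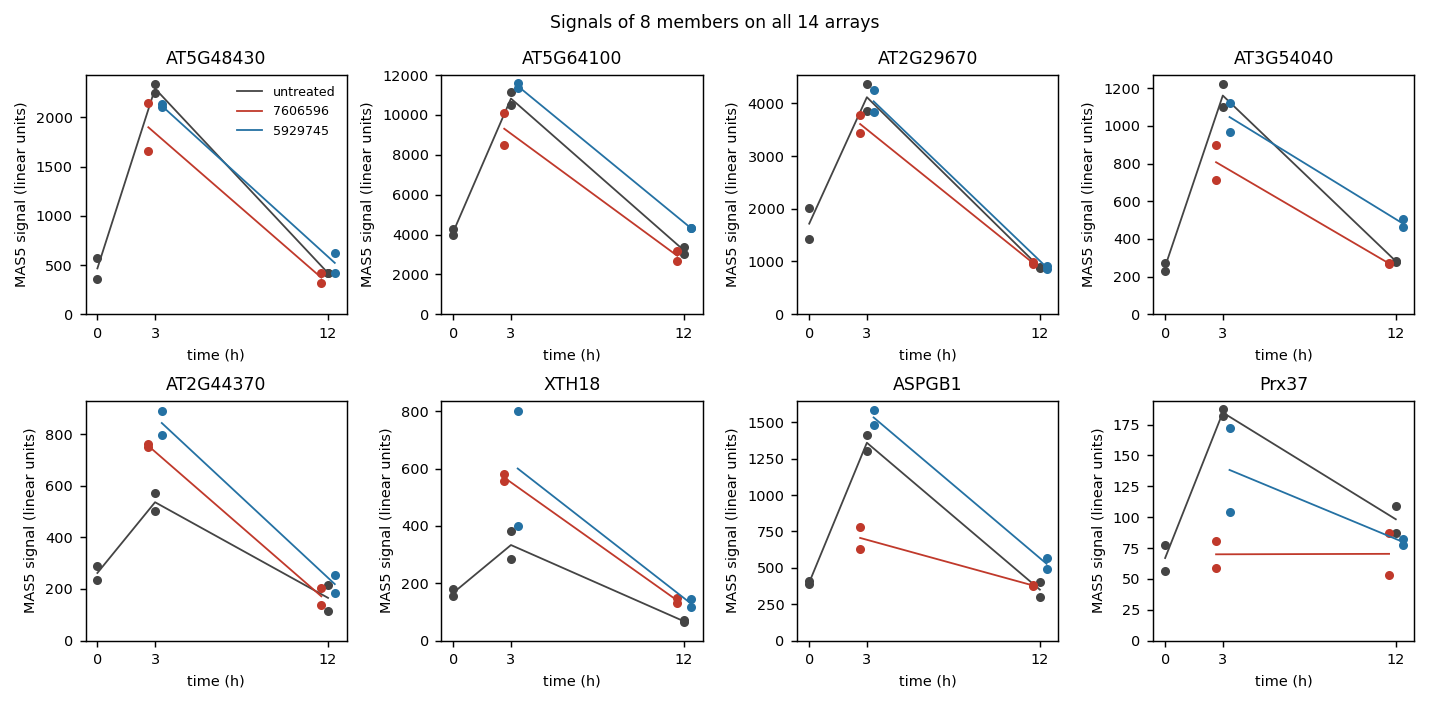
Signals of 8 members on all 14 arrays against time, with a dot for each array and lines through the means of 2 arrays; treated points are shifted slightly sideways. AT5G48430, AT5G64100, AT2G29670 and AT3G54040 fall steeply after 3 h in all series, AT2G44370 and XTH18 lie higher in treated than in untreated seedlings at 3 h, and the means of Prx37 with 7606596 are nearly level.

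The wall-remodelling members were EXLA1, an expansin-like protein, and XTH18, a xyloglucan endotransglucosylase/hydrolase. Both were higher in treated than in untreated seedlings at 3 h and then fell. XTH18 was at 178.3 and 155.2 at 0 h, 283.3 and 383.7 at 3 h and 71.36 and 63.08 at 12 h without treatment. With 7606596 it was at 555.8 and 582.1 at 3 h and 132.2 and 147.3 at 12 h, and with 5929745 at 401.3 and 800.2 at 3 h and 115.6 and 144.2 at 12 h. The 2 arrays with 5929745 at 3 h differed widely, yet both lay above every untreated array and every 12 h array, and the change was -1.96 ± 0.16 (adjusted p = 2.23e-08). EXLA1 was at 1028 and 1070 without treatment, 1227 and 1367 with 7606596 and 1287 and 1922 with 5929745 at 3 h. By 12 h it stood at 499.1 and 479.1 without treatment, 677.6 and 693.9 with 7606596 and 661 and 635.8 with 5929745. Its treated arrays were above the untreated arrays at both times, and it fell by 1.08 on the log2 scale with a standard error of 0.1 (adjusted p = 1.45e-07).

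All 4 malectin-like receptor kinases and related proteins among the members, AT1G51830, AT5G59680, AT1G51790 and AT3G46280, fell with both compounds averaged. AT1G51790 was at 989.2 and 858.7 without treatment at 3 h, 1265 and 1064 with 7606596 and 1474 and 1320 with 5929745. By 12 h its signals were 487 and 377.2 with 7606596 and 464 and 495.8 with 5929745, a change of -1.46 ± 0.12 (adjusted p = 1.28e-08). AT3G46280, a protein related to kinases, was at 2759 and 2027 without treatment, 2936 and 2855 with 7606596 and 3311 and 3198 with 5929745 at 3 h. All 4 of its treated 3 h arrays lay above both untreated ones, and the change to 12 h was -1.35 ± 0.12 (adjusted p = 4.71e-08). AT1G51830 and AT5G59680 had untreated 3 h means of 183.3 and 181.6 and changed by -0.81 ± 0.19 (adjusted p = 0.00206) and -0.99 ± 0.19 (adjusted p = 0.0003). For AT1G51830 the fall with 5929745 alone missed the threshold (-0.73 ± 0.27, adjusted p = 0.0543).

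The 6 enzymes of metabolism all fell from 3 h to 12 h, with each compound and with both averaged. The calls of 2 of them with a single compound were less firm: that of AT4G15390 was lost in 4 of 15 alternative settings with 7606596 and 5 of 15 with 5929745, and that of ENGase85A in 3 and 5 of 15. ASPGB1 encodes an asparaginase, which releases ammonia from asparagine. Its untreated signals were 387.4 and 410.2 at 0 h, 1416 and 1304 at 3 h and 399.2 and 300.7 at 12 h. With 7606596 it reached 627.6 and 783.3 at 3 h and was at 382.1 and 374.5 at 12 h, whereas with 5929745 it reached 1584 and 1485 at 3 h and was at 490 and 565.1 at 12 h. The peak was low with 7606596 and at or above its untreated height with 5929745, and the groups did not overlap at 3 h. AT2G21045, an arsenate reductase of the rhodanese type also known as HAC1, was at 2035 and 2662 without treatment, 1885 and 1801 with 7606596 and 1836 and 1805 with 5929745 at 3 h. It changed by -1.44 ± 0.11 (adjusted p = 7.68e-09). CYP71B26, a cytochrome P450, was at 1126 and 1319 without treatment, 1439 and 1159 with 7606596 and 1374 and 1554 with 5929745 at 3 h. At 12 h it was lower with 5929745, at 315.1 and 252.9, than with 7606596, at 388.2 and 472.2, a difference of 0.57 ± 0.15 that did not pass the test (adjusted p = 0.103), and its change from 3 h was -1.93 ± 0.11 (adjusted p = 7.56e-11). AT1G30700, of the berberine bridge enzyme family of flavoproteins, was at 706 and 680.8 without treatment, 1465 and 1355 with 7606596 and 1043 and 923.4 with 5929745 at 3 h. It had the highest ratio of 7606596 to untreated signal among the members at 3 h, 2.03, and both treated groups lay above the untreated group. It fell by 1.19 on the log2 scale by 12 h, with a standard error of 0.09 (adjusted p = 7.97e-09). AT4G15390, of the HXXXD acyltransferase family, was at 415.9 and 682.8 without treatment at 3 h and at 264.1 and 187.4 with 7606596, a ratio of means of 0.411, and changed by -0.94 ± 0.21 (adjusted p = 0.00141). ENGase85A, which removes N-glycans from proteins, had a smaller fall of -0.54 ± 0.12 (adjusted p = 0.00157).

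AT1G52050 and AT1G52060, jacalin-related lectins encoded side by side, fell by 1.08 and 1.26 on the log2 scale, with standard errors of 0.17 and 0.19 and adjusted p of 5.68e-05 and 3.57e-05. Their 3 h signals were 264.2 and 224.4 for AT1G52050 and 255.8 and 253 for AT1G52060 with 7606596. With 5929745 they were 273.8 and 222.4 for AT1G52050 and 198.7 and 176.6 for AT1G52060. The call of AT1G52060 with 5929745 alone was lost in 7 of 15 alternative settings. AT4G16870, annotated as a pseudogene, and AT4G16880, a leucine-rich repeat protein, also lie near each other, with 1 gene between them, and changed by -0.91 ± 0.12 (adjusted p = 4.53e-06) and -2.37 ± 0.15 (adjusted p = 6.94e-10). Probe sets of near-identical neighbouring copies can share signal, so pairs of such copies may not be independent measurements. How alike the sequences of these neighbours are was not tested. AT4G40070 and AT4G35840 encode RING finger proteins, a family of ubiquitin ligases, and changed by -1.21 ± 0.15 (adjusted p = 4.45e-06) and -0.64 ± 0.15 (adjusted p = 0.00186).

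Among the remaining single-gene members, AT2G29670, a tetratricopeptide-repeat-like protein, had the smallest adjusted p of the averaged change. It was at 4369 and 3860 without treatment, 3768 and 3443 with 7606596 and 3828 and 4245 with 5929745 at 3 h, and at 877.9 and 892.2, 950.1 and 987.7, and 856.8 and 923 in the same order at 12 h. The 3 series were close to each other at both times, and its change was -2.02 ± 0.1 (adjusted p = 8.85e-12). AT3G54040, a PAR1 family protein, was at 1098 and 1223 without treatment, 899.6 and 714.5 with 7606596 and 1124 and 969.8 with 5929745 at 3 h. It changed by -1.3 ± 0.1 (adjusted p = 6.85e-09). AT3G02120, a hydroxyproline-rich glycoprotein, was at 169.1 and 189.7 without treatment at 3 h but at 111 and 69.86 with 7606596 and 96.81 and 111.9 with 5929745. Its later change of -0.69 ± 0.21 (adjusted p = 0.0139) lost its call without 7606596 3 h replicate 1, 5929745 3 h replicate 2 or 7606596 12 h replicate 1, with a highest adjusted p of 0.097. AT2G28780 was at 2.845 and 8.863 in untreated seedlings at 12 h, which are very low signals, against 144.8 and 226.2 at 3 h. With treatment it was higher at 12 h, at 15.02 and 32.32 with 7606596 and 88.75 and 56.41 with 5929745. It changed by -1.36 ± 0.21 in treated seedlings (adjusted p = 3.76e-05). Its call with 5929745 alone was lost in 5 of 15 alternative settings. ROXY2, a glutaredoxin of the CC type, had the lowest ratio of 5929745 to untreated signal at 3 h, 0.576, and changed by -0.74 ± 0.15 (adjusted p = 0.000646). The other 3 were AT3G50350 (-0.6 ± 0.15, adjusted p = 0.00379), AT4G12500, of the lipid-transfer protein family (-0.75 ± 0.16, adjusted p = 0.000972), and AT2G44010 (-0.99 ± 0.13, adjusted p = 4.14e-06). The 11 genes ENGase85A, AT1G52050, AT1G52060, AT4G16870, AT2G28780, ROXY2, AT3G51330, AT5G54040, AT3G50350, AT4G12500 and AT2G44010 were picked for description after their values were seen.

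Of the 30 probe sets not named to a single gene, 29 fell with both compounds averaged. The steepest fall of all 66 was that of 266720_s_at. It was at 377.8 and 215.8 at 0 h, 552.7 and 624.8 at 3 h and 7.094 and 3.728 at 12 h without treatment. With 7606596 it was at 754.2 and 739.8 at 3 h and 33.04 and 15.63 at 12 h, and with 5929745 at 702.4 and 822.8 at 3 h and 27.03 and 33.12 at 12 h. In every series its 12 h signals were a small fraction of its 3 h signals, with a change of -4.18 ± 0.17 (adjusted p = 7.45e-13) that the added offset of 16 makes smaller than the ratio of signals. The probe set 250971_at had untreated signals of 2485 and 2496 at 3 h and 218.7 and 202.9 at 12 h, and changed by -2.64 ± 0.1 in treated seedlings (adjusted p = 1.92e-13).

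Technical values and other tissue markers moved with time in the treated seedlings too. The 25S rRNA control was at 466 to 850.3 on the treated 3 h arrays and 289.6 to 408.9 on the treated 12 h arrays, and the mean log2 signal of the hybridization controls was 11.17 to 11.29 and 11.07 to 11.14. The poly-A controls overlapped, at 5 to 5.34 and 4.8 to 5.25. The summed signal of EXPA7 and EXPA18 was 193.4 to 244.4 at 3 h and 89.24 to 127.8 at 12 h, and both fell, EXPA7 by 0.83 (standard error 0.19, adjusted p = 0.00184) and EXPA18 by 0.74 (standard error 0.22, adjusted p = 0.0128) on the log2 scale. The part of RNA quality or of root tissue in the members' change was not tested.

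At 3 h the height of the peak under treatment was set beside the untreated height, as a description only, because the untreated 3 h arrays chose the members for being high. With 7606596 the ratio of treated to untreated mean was 0.362 to 2.03 with a median of 0.805. It was under 0.5 in 9 members, from 0.5 to 0.8 in 24, from 0.8 to 1.25 in 24 and over 1.25 in 9. Both arrays lay below both untreated arrays in 40 members, where 26.8% of tested probe sets did, and above both in 11, where 22.8% did. With 5929745 the ratio was 0.576 to 1.8 with a median of 0.917, and 0 members were under 0.5, 18 from 0.5 to 0.8, 39 from 0.8 to 1.25 and 9 over 1.25. Both arrays lay below both untreated arrays in 22 members, where 24.4% of tested probe sets did, and above both in 13, where 22.1% did. Because the untreated values chose the members, nothing is read from these shares. The poly-A controls and the 25S rRNA control also differed between these groups, the latter at 277 and 212.1 without treatment against 466 to 850.3 with it. The summed signal of EXPA7 and EXPA18 was 121.2 and 159.2 without treatment against 193.4 to 244.4 with it. The part of these differences was not tested. Against untreated seedlings at 0 h, both 3 h arrays lay above both 0 h arrays in 56 of 66 members with 7606596, where 25.6% of tested probe sets did, and in 65 of 66 with 5929745, where 27.9% did. The choice of members required low untreated signals at 0 h and 12 h. Nothing is therefore read from these shares either, or from ratios to those groups. With 7606596 the 3 h mean was below the 0 h mean in 3 members, at ratios of 0.788 for 261826_at, 0.95 for 262805_at and 0.899 for 254893_at, and the median ratio was 1.96. With 5929745 the ratio was 1.11 to 4.55 with a median of 2.37, and ROXY2 was the member whose arrays overlapped those of 0 h. At 12 h the median ratio of treated to untreated mean was 1.04 with 7606596 and 1.22 with 5929745.

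**Figure D4:**
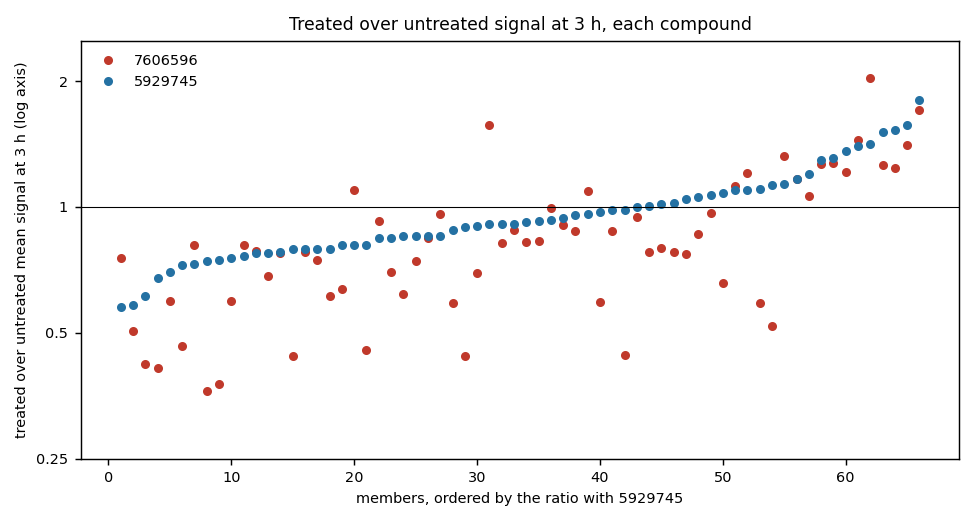
Ratio of the treated to the untreated 3 h mean signal for each of the 66 members on a log axis, in red for 7606596 and in blue for 5929745, with members ordered by the ratio for 5929745. With 7606596, 9 members lie under 0.5, and with 5929745 none of the 66 does.

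The compounds could be compared directly at the same dose and times, on arrays that the choice of members did not use. At 3 h, 4 of 66 members were lower with 7606596 than with 5929745 and 0 were higher, where 0.182% of tested probe sets were lower. The member median was -0.17 on the log2 scale, against -0.02 for all tested probe sets, and 74.2% of members and 53.3% of tested probe sets lay below 0. The 4 were ASPGB1 and the probe sets 260451_at, 261826_at and 262805_at, which the annotation gives no gene. ASPGB1 differed by -1.11 ± 0.15 (adjusted p = 0.000246), with a 95% interval from -1.42 to -0.8. The probe set 260451_at was at 642.3 and 679.8 without treatment, 356.1 and 227.6 with 7606596 and 677.6 and 624 with 5929745, a difference of -1.15 ± 0.18 (adjusted p = 0.00128). Signals of 261826_at were 2455 and 3131 without treatment, 1069 and 955.9 with 7606596 and 2100 and 2050 with 5929745, a difference of -1.03 ± 0.15 (adjusted p = 0.000769). For 262805_at they were 393.1 and 350.2 without treatment, 172.2 and 155.6 with 7606596 and 333.4 and 255 with 5929745, a difference of -0.78 ± 0.18 (adjusted p = 0.0428). In all 4 the 7606596 arrays lay below the 5929745 arrays without overlap. Without 7606596 3 h replicate 2 the count was 2, since 260451_at (highest adjusted p 0.0565) and 262805_at lost their calls. The call of 262805_at was lost in 9 of 15 alternative settings. The 25S rRNA control also differed between the compounds at 3 h, at 531.1 and 466 with 7606596 and 850.3 and 759.6 with 5929745, and its part in these differences was not tested.

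For the other members no difference between the compounds passed the test at 3 h. Some of these differences were large. Prx37 differed by -0.82 ± 0.26 (adjusted p = 0.21), and the largest difference above 0 was 0.76. The intervals that follow are for members with differences near 0 and do not bound those of the others. For XTH18 the difference was 0 ± 0.23 with a 95% interval from -0.49 to 0.49. For AT5G48430 it was -0.17 ± 0.2, with an interval from -0.58 to 0.25. For AT2G29670 the interval ran from -0.45 to 0.13, and for AT2G21045 from -0.31 to 0.35. The median standard error over the 66 members was 0.19.

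At 12 h, 2 of 66 members were lower with 7606596 than with 5929745 and 0 were higher, where 0.345% of tested probe sets were lower. The member median was -0.22, against -0.01 for all tested probe sets, and 77.3% of members and 51.7% of tested probe sets lay below 0. The 2 were AT3G54040 and AT5G64100. AT3G54040 stood at 270.9 and 268.1 with 7606596 and 460.7 and 504.7 with 5929745, with 278.6 and 284.9 in untreated seedlings, a difference between compounds of -0.8 ± 0.14 (adjusted p = 0.00715). AT5G64100 differed by -0.56 ± 0.11 (adjusted p = 0.0206), a call that was lost in 6 of 15 alternative settings. In both, the signal with 7606596 was close to or below the untreated signal and that with 5929745 above it. The calls were not stable to single arrays. The count was 0 without 5929745 12 h replicate 2, and 1 without 7606596 12 h replicate 1 or without 5929745 12 h replicate 1. Without 5929745 12 h replicate 2 both calls were lost. Without 7606596 12 h replicate 2 the call of AT5G64100 was lost and another member was called, so the count stayed at 2.

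**Figure D5:**
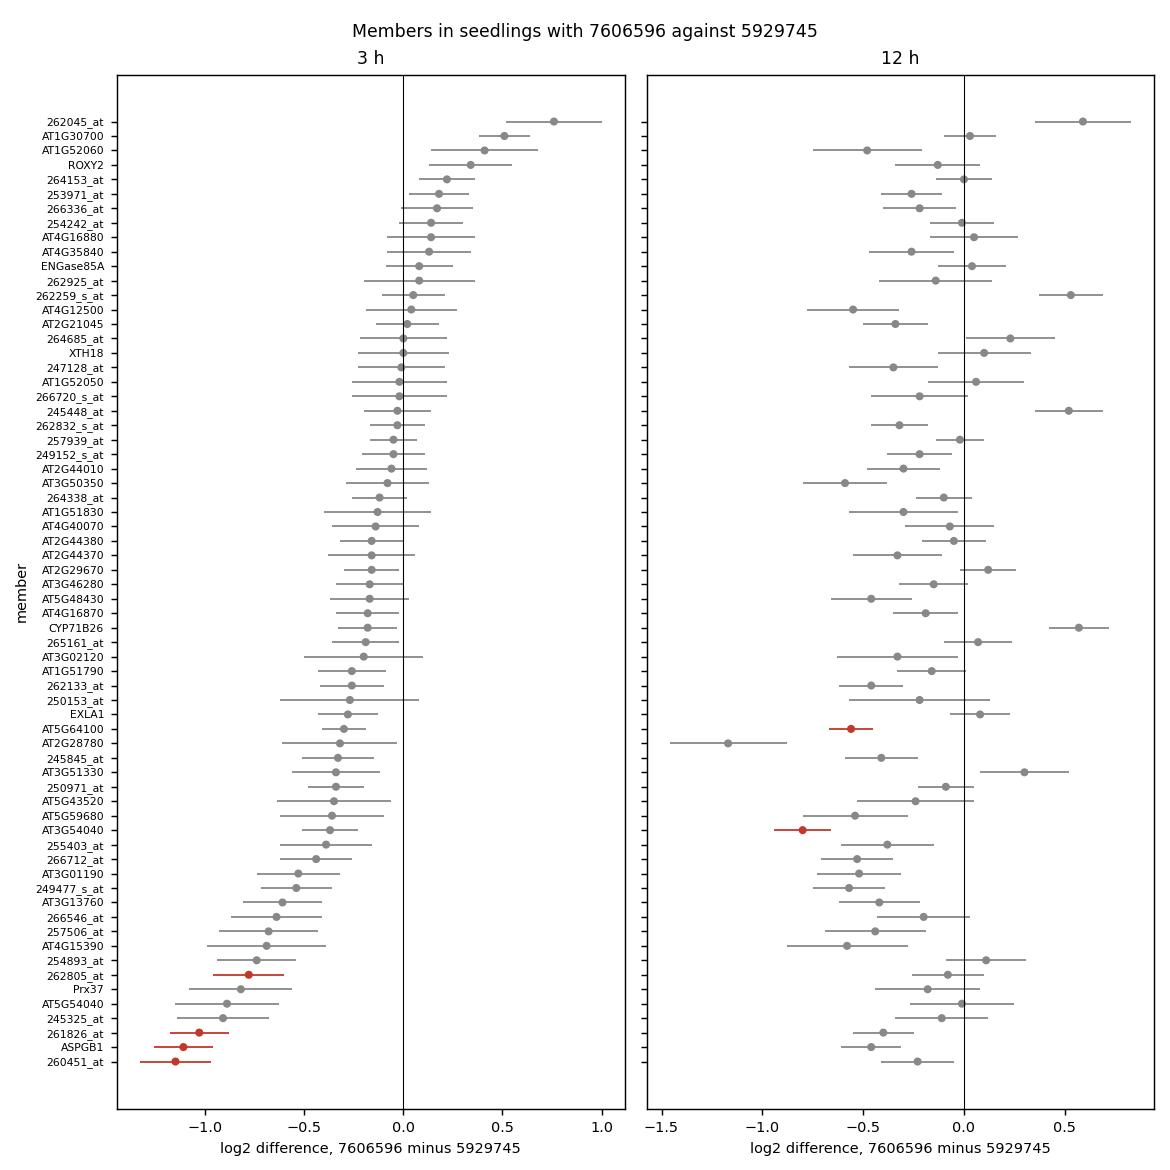
Difference in log2(signal + 16) between seedlings with 7606596 and with 5929745 at 3 h (left) and 12 h (right) for each of the 66 members, ordered by the 3 h difference, with bars of 1 SE. Red marks the 4 members called at 3 h and the 2 called at 12 h, and all of these lie below 0.

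The pathways to which fast transient genes often belong were covered thinly by the annotation. Of 237 genes in 15 pathway lists, 39 were named on the array, 27 passed the filter and 3 were members: Prx37 of the class III peroxidases and EXLA1 and XTH18 of cell wall loosening. Of the 24 measured list genes that were not members, 13 fell and 4 rose from 3 h to 12 h with both compounds averaged, and their median change was -0.46. In the cell wall loosening list 5 of 7 measured genes fell and 0 rose in the average and with 7606596, while with 5929745 alone 3 fell and 1 rose. These counts of falls include the members EXLA1 and XTH18 each time. The expansin EXPA8 changed by -2.08 ± 0.13 (adjusted p = 2.92e-10), close to XTH18, while EXLB1 was at 0.21 ± 0.15 (adjusted p = 0.308). EXLB1 was the gene that rose with 5929745, by 0.73 ± 0.22 (adjusted p = 0.0177), and it was at -0.32 ± 0.22 with 7606596 (adjusted p = 0.311). In the class III peroxidase list 2 of 4 fell in the average, 1 with 7606596 and 3 with 5929745, and PRX71 changed by -0.89 ± 0.09 (adjusted p = 3.82e-07). The 4 include the member Prx37, which is not among those that fell. In the auxin response list 3 of 4 fell, among them IAA29, a repressor of auxin signalling, at -1.31 ± 0.23 (adjusted p = 0.000146). IAA29 and the calmodulin-like CML38 had untreated peaks of 1.89 and 1.971 times but were too weak at 3 h for the choice, with means of 108.8 and 158.4. BHLH101 of the iron deficiency list had a peak of 2.188 times. Its untreated 3 h mean was only 44.87, and it did not pass the filter. Both measured genes of the clock and evening list rose, COR27 by 2.07 ± 0.11 (adjusted p = 4.96e-11) and COR28 by 3.23 ± 0.14 (adjusted p = 2.1e-12). The part of the time of day in the members' change was not tested. The iron deficiency list gave 2 of 2 genes that rose in the average and 1 with each compound alone. In the heat shock list 2 of 2 fell in the average and with 7606596, but 0 of 2 with 5929745, where AT2G29500 was at 0.03 ± 0.24 (adjusted p = 0.942) and HOP3 at -0.33 ± 0.21 (adjusted p = 0.284). The touch and wound list had 2 of 3 that fell in the average and with 7606596, and 1 with 5929745. The glucosinolate list had 1 of 1 that fell, and the defence and phenylpropanoid lists 0 of 1 each. In the flavonoid, sulfate, jasmonate, nitrate and phosphate starvation lists 0 genes were tested, because they were not named by the annotation or did not pass the filter.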

How the data were processed

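The values deposited by the authors are linear intensities, made with MAS5 (no version given) per the submitters' processing notes, which corrects the background and scales each array. Detection calls were not used here. The table held 22810 probe sets, 64 of them controls, which were not tested. The 15922 with a mean signal at or above the 30th percentile (42.3) were fitted as log2(signal + 16) with limma 3.58.1 in R 4.3.3, with 1 mean per group of 2 over all 14 arrays and a variance trend on the mean signal. The model had 7 residual and 11.4 prior degrees of freedom. Tests were two-sided, and p-values were adjusted over the 15922 by Benjamini-Hochberg, with calls at an adjusted p under 0.05. Errors are standard errors of the fit, or SD over 2 arrays beside signals. P-values measure the spread between these samples, which may be technical, and the number of arrays limits the precision.

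Members and gene lists were chosen with earlier results of these data known, and families were assigned from background knowledge after values were seen. Named genes are single-gene members with the highest untreated peak, the smallest adjusted p, the extreme treated to untreated ratios or the highest signal, plus list members and those at the threshold. Comparisons with untreated seedlings got no test, because the choice used those arrays. Gene names come from the array's annotation, with symbols updated through RefSeq for 13436 of 13513 single-gene probe sets. The planned promoter motif search was not done, since no promoter sequence was used here. The alternatives tried are listed in the closing section.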

Additional observations from a re-analysis of the deposited data

How the results depend on the processing

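The counts of members that fell from 3 h to 12 h stayed within 1.5 times the main counts under every alternative: offsets of 1 and 64, no filter, no variance trend, quantile normalization, the replicate block, only the 8 treated arrays, and each treated array left out. Leaving out 1 array gave 61 to 64 calls with both compounds averaged, 48 to 61 with 7606596 and 46 to 58 with 5929745. It gave 2 to 5 calls between the compounds at 3 h, 0 to 2 at 12 h and 0 in every case for the difference of the time changes. Same-numbered samples did not deviate together: over 21 pairs of groups the correlation ran from -0.197 to 0.117, with 1 over 0.1, so the pairing was not used. With the replicate number as a block the counts were 64, 59, 58, 3, 2 and 0 in that order; the block ended the 3 h call of 262805_at and the 7606596 time call of AT5G54040. The 12 h comparison of the compounds called 1 member without the filter, 1 without the variance trend and 1 with only the 8 treated arrays, in place of 2. Of 188 member calls over 2820 alternative values, 125 values lost the call, 0 reversed, and 150 calls were kept throughout. Over all probe sets the calls between compounds varied more: 146 at 3 h became 91 without the filter and 92 without the trend, with 65 to 184 when an array was left out. At 12 h, 135 became 65 without the filter and 46 without the trend, with 28 to 188 when an array was left out. For the difference of the time changes, 8 became 4 with an offset of 1, 3 without the filter, 0 without the trend, 4 with the block and 5 with only the treated arrays, and 3 to 19 when an array was left out. Without 7606596 3 h replicate 2, 2771 probe sets in place of 4215 changed with time under 7606596, and without 5929745 3 h replicate 2, 2652 in place of 4038 under 5929745. The rule gave 199 members with a fold of 1.5, 642 without the level and 46 with a fold of 2, and from 3 h to 12 h 172 of the 199, 105 of the 130 tested of the 642 and all 46 fell. After quantile normalization it gave 64, of which 62 fell. The median ratio of treated to untreated signal at 3 h stayed at 0.871 with an offset of 1 and after quantile normalization. Causes of these shifts were not tested.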
